A study of Danio rerio with 12 samples.

Results

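The occupancy of the genome by p63 was compared between zebrafish embryos at 24 h post fertilization (hpf), in segmentation, and embryos at 80% of epiboly, in gastrulation. The data were 4 of the 12 peak lists of the series, with n = 2 libraries per stage. Overlapping peaks of the 4 lists, with a minimum overlap of 1 bp, formed 65824 merged regions. A region was called gained where both 24 hpf lists and neither list of 80% epiboly had a peak, lost where both lists of 80% epiboly and neither 24 hpf list had a peak, and kept where all 4 lists had a peak. There were 2579 gained, 12183 lost and 6524 kept regions.

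Both groups were whole wild type (WT) embryos, raised at the same temperature and immunoprecipitated with an antibody to p63 by ChIPmentation, in which the Tn5 transposase inserts sequencing adaptors into the captured chromatin. Each library came from chromatin of many pooled embryos, more of them at 80% epiboly than at 24 hpf. No control library is stated, so that enrichment was measured against the local background of the same library. The series also holds 2 p63 lists at 36 hpf and 6 lists of Sox3, a factor that marks neural progenitors, from WT and *tp63* mutant embryos. These 8 lists played no part in the choice of the regions.

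p63 is a transcription factor of the p53 family and a regulator of the epidermal lineage, needed for a stratified epidermis in vertebrates. During gastrulation the ectoderm is divided into cells that will form neural tissue and cells that will form epidermis, with the neural plate border between them. By segmentation an epidermis with basal cells that express p63 covers the embryo. In whole embryos, fewer cells with p63 on a site and less p63 per cell cannot be told apart, and a region without a peak is a region below the threshold of the peak caller, not a region shown to be free of p63.

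The 24 hpf lists held 14707 and 25659 peaks, against 36652 and 42668 peaks at 80% epiboly. Both later lists were shorter than both earlier lists, and the difference in mean log2 peak number was −1.03 (two-sided exact permutation test of 2 against 2 libraries, p = 0.333, the smallest value this design allows). Depth went the same way. The peaks had been called from 12.1 and 16.5 megatags (M tags) at 24 hpf, against 20.9 and 25.1 M tags at 80% epiboly, as recovered from the values of each list. The study reported fewer uniquely mapped reads for each of these libraries than the tags recovered here. The relative gap between the stages was also wider in those mapped reads. Stage and depth therefore cannot be told apart in these lists as they stand. All scaling to equal depth used the recovered tags, and so the narrower gap. With the tag counts of every peak scaled to 12.1 M tags, 14706 and 24955 peaks passed a common limit at 24 hpf, against 31625 and 31099 at 80% epiboly, which lowered the difference to −0.71 on the log2 scale (exact permutation p = 0.333). Without replicate 1 of 24 hpf the difference was −0.62. The labels call the libraries of a stage replicates, and the p-values measure only the spread between these libraries.

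Gained regions made up 3.92% of the 65824 merged regions, lost regions 18.5% and kept regions 9.91%. The other 44538 regions fitted none of the 3 classes. Of these, 33835 had a peak in a single library, 9593 of them at 24 hpf and 24242 at 80% epiboly. A further 1270 regions had peaks in both 24 hpf lists and in 1 list of 80% epiboly. There were 6114 regions with peaks in both lists of 80% epiboly and in 1 list of 24 hpf, and 5061 of these had their later peak in 24 hpf replicate 2, the deeper library of that stage. Seen from each stage, 10373 regions had a peak in both 24 hpf libraries, of which 24.9% (95% Clopper-Pearson interval 24.0 to 25.7) were gained and 62.9% (62.0 to 63.8) were kept. At 80% epiboly 24821 regions had a peak in both libraries, of which 49.1% (48.5 to 49.7) were lost and 26.3% (25.7 to 26.8) were kept. These and all later intervals cover counting error only. The weakest peaks that placed a region in a class lay at the limit of the lists. Their −log10 q was 3.01 and 3.18 for gained regions at 24 hpf, where the lowest of all peaks was 3.01 in both lists. It was 3.0 and 3.19 for lost regions at 80% epiboly, where the lowest of all peaks was 3.0 and 3.02.

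The requirement of a peak in both replicates set these counts to a large extent. Without 24 hpf replicate 1, gained regions numbered 9845 and kept regions 11586, and without 24 hpf replicate 2 gained regions numbered 5043. Without replicate 1 or replicate 2 of 80% epiboly, lost regions numbered 26936 or 22388. Lost regions outnumbered gained regions with any of the 4 libraries left out, by a log2 ratio of 0.43 to 3.15, against 2.24 with all 4. Without a library of 80% epiboly the rule itself favours lost regions, which then need 1 peak while gained regions need 2. Without a 24 hpf library it favours gained regions in the same way. The lowest ratio came without replicate 1 of 24 hpf.

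The classes were also formed from lists of equal length. Giving both stages the same number of peaks largely fixes the balance of gained and lost regions, which can then differ only through the overlap between replicates and the merging of peaks, so that these counts do not measure the effect of list length. With the 14707 peaks of highest −log10 q taken from each list, which is the length of the shortest list, the merged regions numbered 30847, of which 3353 (10.9%) were gained, 3821 (12.4%) were lost and 4237 (13.7%) were kept. The log2 ratio of lost to gained regions was then 0.19. With the 5000 highest peaks of each list there were 1442 gained, 1527 lost and 1733 kept regions, a log2 ratio of 0.08. With the 1000 highest peaks there were 301 gained, 362 lost and 325 kept regions. Scaling to equal depth moved the counts less, to 2919 gained, 8943 lost and 6081 kept regions, a log2 ratio of 1.62. In these scaled lists, where the number of peaks was not fixed, lost regions still outnumbered gained regions. The scaling multiplied the tag counts of each called peak by a constant, without sampling reads or calling peaks anew. It gave the deeper lists none of the sampling noise of a shallower library, so these counts cannot show what equal sequencing would give.

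**Figure D1:**
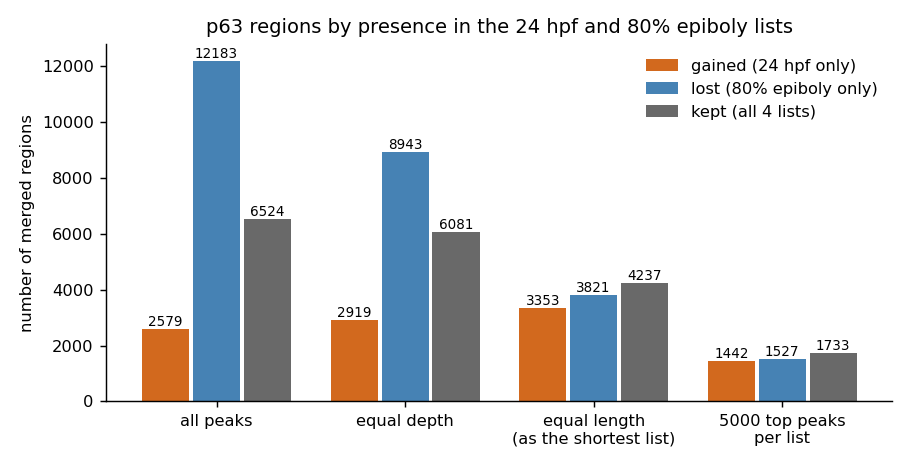
Number of merged p63 regions that were gained (orange), lost (blue) or kept (grey) with all peaks, with tag counts scaled to equal depth, and with each list cut to 14707 or 5000 peaks. Lost regions outnumber gained regions at 12183 against 2579 with all peaks, and 8943 against 2919 at equal depth, while the near equality at equal length, with 3353 gained and 3821 lost regions, is largely set by the equal number of peaks.

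Cutting the lists also changed which regions belonged to each class. Of the 3353 gained regions at equal length, 1987 (59.3%) were gained in the full lists and 561 (16.7%) were kept in the full lists, since a weaker peak at 80% epiboly lay below the cut. Of the 3821 lost regions at equal length, 2943 (77.0%) were lost in the full lists and 1 was kept. All 4237 regions kept at equal length were kept in the full lists. The asymmetry follows from the cut itself, which removed most peaks from the longest lists and none from 24 hpf replicate 1.

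The strongest peaks of each list were found at both stages. Of the 100 peaks of highest −log10 q, 100 and 99 were in kept regions in the 24 hpf lists, against 99 and 100 at 80% epiboly. Of the 1000 highest peaks, 916 and 908 were in kept regions at 24 hpf, against 898 and 895 at 80% epiboly. Gained regions took 40 and 49 of the 1000 highest peaks of the 24 hpf lists. Lost regions took 44 and 49 of the 1000 highest peaks at 80% epiboly. Among the 5000 highest peaks these shares were 17.1% and 16.5% for gained regions, against 18.5% and 18.3% for lost regions. Gained and lost regions were thus about equally rare among the highest peaks of the lists that define them. Over the whole lists gained regions took 17.6% and 10.1% of the 24 hpf peaks, and lost regions took 33.6% and 28.8% of the peaks of 80% epiboly. The share of gained regions was thus lower in the whole list than among the 5000 highest peaks in 24 hpf replicate 2, and about the same in replicate 1, while that of lost regions was higher in both libraries of 80% epiboly.

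**Figure D2:**
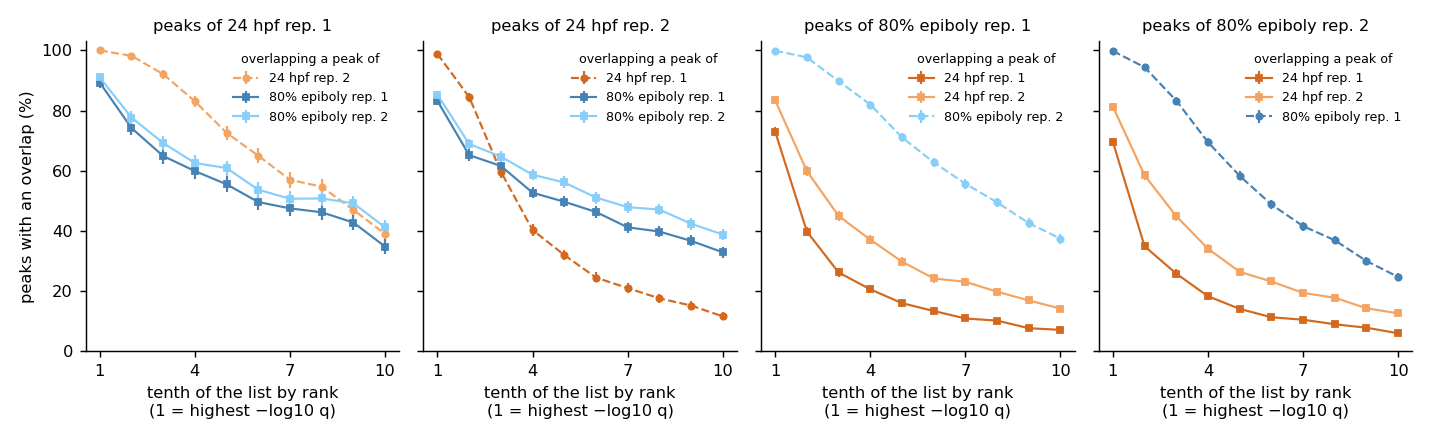
Share of the peaks of each p63 library (panels) that overlapped a peak of another library by at least 1 bp, for successive 10% of the list from the highest to the lowest −log10 q. Dashed lines and circles stand for the other replicate, solid lines and squares for the libraries of the other stage, and bars for 95% Clopper-Pearson intervals. In the highest 10% of peaks, 83.2% to 91.0% of the 24 hpf peaks overlapped a peak of 80% epiboly, and 69.6% to 83.4% of the peaks of 80% epiboly overlapped a 24 hpf peak.

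Overlap between stages was lower for weaker peaks in every library. In the highest 10% of the peaks of 24 hpf replicate 1, 89.3% and 91.0% overlapped a peak of the 2 libraries of 80% epiboly, and in the lowest 10% 34.8% and 41.2% did. For 24 hpf replicate 2 the shares were 83.2% and 85.3% at the top and 32.9% and 38.8% at the bottom. In the other direction, 73.0% and 83.4% of the highest 10% of the peaks of 80% epiboly replicate 1 overlapped a peak of the 2 libraries of 24 hpf, and 7.12% and 14.2% of the lowest 10% did. For 80% epiboly replicate 2 they were 69.6% and 81.3% at the top and 5.98% and 12.6% at the bottom. Overlap with the other replicate also fell, although it was 98.8% or more in the highest 10% of every list. In 24 hpf replicate 2, the lowest 10% of peaks overlapped the other 24 hpf library less often (11.6%, 95% interval 10.4 to 12.9) than either library of 80% epiboly (32.9%, 31.1 to 34.8, and 38.8%, 36.9 to 40.7). Over the whole list 40.5% of its peaks overlapped the other 24 hpf library, against 50.9% and 56.1% for the libraries of 80% epiboly. The order was the reverse in the highest 10%, at 98.8% against 83.2% and 85.3%, and in the next 10%. Apart from its highest peaks, a peak of this library was therefore more often met again in the deeper libraries of the other stage than in the shallow replicate of its own stage.

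Regions were next sorted by 1 library per stage and looked up in the other library of each stage. Those with the same direction in both pairs are the 2579 gained and 12183 lost regions themselves, so that the shares describe how much of each pair the classes retain and are no independent support for them. For 24 hpf replicate 1 and 80% epiboly replicate 1, 6239 regions had a peak at 24 hpf only. In the other pair of libraries 41.3% of them again had a peak at 24 hpf only, 7.49% had one at 80% epiboly only, 13.0% had both and 38.2% had neither. Of the 27889 regions with a peak at 80% epiboly only, 43.7% were again so in the other pair and 3.14% had a peak at 24 hpf only. Over the 4 ways to choose the pair, the same direction was found again for 20.9% to 45.7% of the regions present at 24 hpf only, and the opposite direction for 4.09% to 14.1%. For the regions present at 80% epiboly only, the same direction was found again for 36.4% to 52.4% and the opposite direction for 0.994% to 5.22%. Shared presence was found again for 46.1% to 78.9% of regions. Regions with neither peak in the other pair made up 35.0% to 64.8% of the regions of either direction.

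Within each library, peaks of kept regions had a higher median rank than those of gained or lost regions. In percentiles of −log10 q, where 100 is the strongest peak of a list, gained regions had a median of 52.2 and 69.0 in the 24 hpf lists. Lost regions had a median of 51.8 and 55.5 in the lists of 80% epiboly. Kept regions had medians of 67.6 and 80.2 at 24 hpf, against 84.9 and 87.2 at 80% epiboly. Percentiles of kept regions are higher in a longer list, as the same regions stand above more unshared peaks. With the lists at equal length the median rank of kept regions was 3396 and 3374 at 24 hpf, against 2951 and 2966 at 80% epiboly, so that a smaller difference in the same direction remained. Median fold enrichment over the local background was 6.67 and 7.02 in gained regions at 24 hpf, and 5.82 and 5.70 in lost regions at 80% epiboly. In kept regions it was 7.21 and 7.66 at 24 hpf, against 8.04 and 7.91 at 80% epiboly. Over all peaks the median fold enrichment was also higher at 24 hpf, at 6.54 and 6.21, against 5.88 and 5.63 at 80% epiboly. At equal length the medians were 6.97 and 7.66 in gained regions, against 7.40 and 7.34 in lost regions. Gained regions then no longer stood above lost regions in both libraries.

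**Figure D3:**
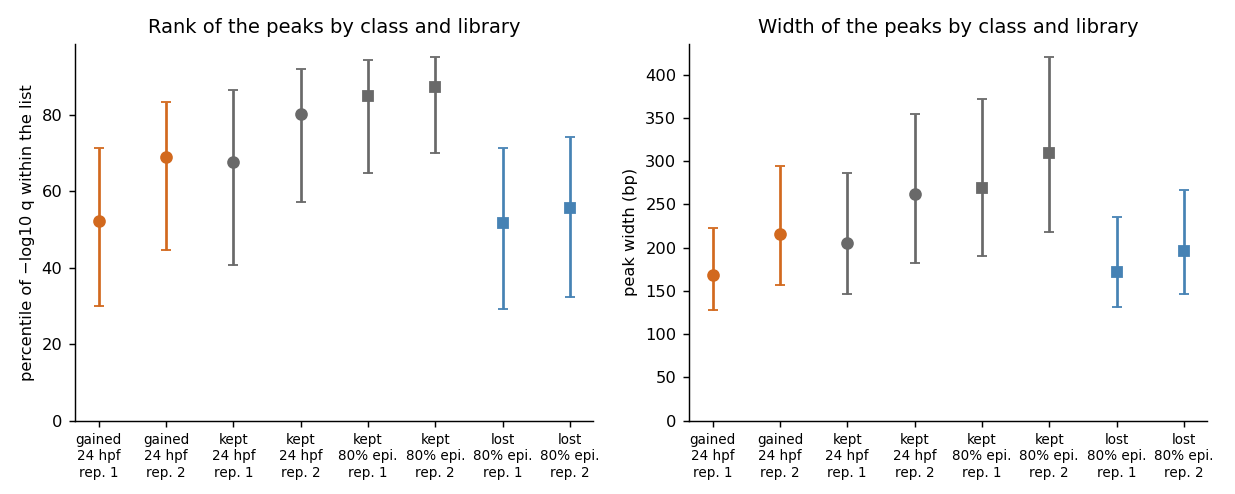
Median and interquartile range of the percentile of −log10 q (left) and of peak width in bp (right) for the peaks of gained (orange), kept (grey) and lost (blue) regions in each library, with circles for 24 hpf and squares for 80% epiboly. Peaks of kept regions stand higher and are wider than those of gained or lost regions in the same library, with median widths of 206 and 262 bp at 24 hpf and 269 and 309 bp at 80% epiboly.

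Peaks of kept regions were wider in the median than those of gained or lost regions in each library, while the difference between stages depended on the number of peaks compared. Over all peaks, median width was 162 and 167 bp at 24 hpf, against 167 and 180 bp at 80% epiboly, a difference of −9.0 bp in the means (exact permutation p = 0.667). At equal length it was 162 and 215 bp at 24 hpf, against 242 and 277 bp at 80% epiboly, a difference of −71.0 bp (exact permutation test, smallest attainable p of 0.333), and the groups did not overlap. Cutting the longer lists removed their narrow, weak peaks, so that width and rank moved together here. The weakest peaks left had a −log10 q of 3.01 and 7.81 at 24 hpf, against 9.95 and 11.5 at 80% epiboly. With a common −log10 q of at least 10 the difference was −1.5 bp (exact permutation p = 0.667). With tag counts scaled to equal depth it was −27.0 bp (exact permutation p = 0.333). The narrowest peak of each list was 104 and 99 bp wide at 24 hpf, against 101 and 102 bp at 80% epiboly. These widths equal the fragment lengths recovered from the values, below which the caller reported no peak. In gained regions the median peak was 168 and 216 bp wide at 24 hpf. In lost regions it was 172 and 196 bp wide at 80% epiboly. Kept regions had peaks of 206 and 262 bp at 24 hpf, against 269 and 309 bp at 80% epiboly.

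Strong peaks were wider than weak peaks in all 3 classes. In the highest 10% of peaks, the median width in 24 hpf replicate 1 was 277 bp for gained and 320 bp for kept regions, and in 24 hpf replicate 2 it was 316 and 365 bp. At 80% epiboly the median width was 327 bp for lost and 371 bp for kept regions in replicate 1, and 346 and 408 bp in replicate 2. In the lowest 10% of peaks, gained and kept regions had medians of 135 and 132 bp in 24 hpf replicate 1. Lost and kept regions had medians of 134 and 136.5 bp in 80% epiboly replicate 1, and of 137 and 148 bp in replicate 2. The difference between the classes was thus larger among strong peaks than among weak peaks. Rank was not matched within the highest 10%, which held 101 peaks of gained and 1282 of kept regions in 24 hpf replicate 1. The part of rank in this difference was not tested. Merged regions were 246 bp wide in the median for gained, 236 bp for lost and 382 bp for kept regions. This order is in part built in, since a kept region joins peaks of 4 lists and a gained or lost region peaks of 2. In total gained regions covered 0.679 Mb, lost regions 3.14 Mb and kept regions 2.67 Mb.

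Within the 6524 kept regions, summits lay about as far apart across stages as between the 24 hpf replicates, and farther apart than between the replicates of 80% epiboly. Small distances are in part built in, since a kept region needs merged peaks of all 4 lists. The median distance between summits was 31.0 to 34.0 bp for the 4 pairs of libraries across stages, against 35.0 bp between the 24 hpf replicates and 26.0 bp between the replicates of 80% epiboly. Summits lay within 100 bp in 86.7% to 87.9% of kept regions across stages, against 86.0% between the replicates of 24 hpf and 91.5% between those of 80% epiboly. They lay more than 200 bp apart in 3.33% to 3.54% of kept regions across stages. The order of strength changed more than the position. Spearman's rho of the percentiles over the 6524 kept regions was 0.443 to 0.492 across stages, against 0.739 between the 24 hpf replicates and 0.867 between the replicates of 80% epiboly, which describes regions that share libraries and carries no test. A peak stood at a higher percentile in both 24 hpf libraries than in both libraries of 80% epiboly in 1032 kept regions, and at a higher percentile in both libraries of 80% epiboly in 3214. The effect of list length on percentiles given above applies to these counts. Peaks were wider in both 24 hpf libraries in 816 kept regions and wider in both libraries of 80% epiboly in 2910. The libraries of 80% epiboly had more tags than those of 24 hpf, and the part of depth in these widths was not tested.

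The 5 gained regions on chromosomes 1 to 25 with the highest mean percentile are named here, with coordinates of the genome build GRCz10 (danRer10). Genes at these positions were not analysed here. The first was chr23:45675342-45675790, with a fold enrichment of 15.0 and 15.2 in the 24 hpf libraries, where it ranked 123 and 91. The second was chr12:41729175-41729583, with a fold enrichment of 14.6 and 14.2. The others were chr15:6464236-6464647 (13.8 and 15.0), chr2:56890672-56890999 (12.8 and 15.4) and chr7:23788525-23788943 (11.9 and 12.1). All 5 had a peak in both p63 lists at 36 hpf, with a fold enrichment of 13.4 to 25.6, as had 41.8% of gained and 10.2% of all regions. None had a peak in the Sox3 list at 80% epiboly, which had one in 0.310% of gained and 8.09% of all regions. In 4 of the 5 there was a peak in the Sox3 list at 24 hpf. These few regions do not stand for the class, as 39.1% of gained regions had such a peak, against 48.2% of all regions. Among gained regions in the top 25% of the 24 hpf lists it was 31.6%.

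The 5 lost regions chosen in the same way ranked between 102 and 390 in the lists of 80% epiboly. The region chr3:20841666-20842081 had a fold enrichment of 19.2 in replicate 1 and 15.2 in replicate 2, and chr16:41548605-41549059 had 17.4 and 14.6. Neither had a peak in any of the 8 other lists, as was so for 27.4% of lost and 34.1% of all regions. The region chr1:5763159-5763748 (16.3 and 12.3) had a peak in 3 of the 4 Sox3 lists at 36 hpf. The region chr7:129845-130153 (24.9 and 20.8) had a peak in 1 of the 2 Sox3 lists of *tp63* mutants. The region chr1:8610286-8610769 (10.5 and 8.47) was absent from both 24 hpf lists but had a peak in both p63 lists at 36 hpf, with a fold enrichment of 9.84 and 16.7. This last pattern was rare among lost regions, as 295 of 12183 (2.42%) had a peak in both 36 hpf lists, against 10.2% of all regions.

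Among kept regions, chr17:53292606-53292893 ranked 1 in both 24 hpf lists, and 2 and 1 in the lists of 80% epiboly. Its fold enrichment was 32.7 and 31.1 at 24 hpf, against 28.3 and 27.7 at 80% epiboly. The region chr20:4437673-4438038 had 35.2 and 31.6 at 24 hpf, against 32.6 and 28.3 at 80% epiboly. Both regions, and also chr10:12113725-12114037 (25.7 and 24.4 against 24.6 and 24.8), had a peak in all 12 lists of the series, Sox3 lists included. The other members of the 5 were chr5:65165729-65166214 (between 16.3 and 18.8 over the 4 libraries) and chr23:44764090-44765159 (17.3 and 15.3 at 24 hpf, against 15.5 and 14.1 at 80% epiboly). Presence in all 12 lists was concentrated at the top of the ranking. It was found in 6 of the 10 kept regions of highest mean percentile, in 21 of the highest 100, in 82 of the highest 1000 and in 204 (3.13%) of all 6524. Whether p63 or another property of these places gave their enrichment was not tested. Conversely, 2135 of the 6524 kept regions had no peak in any Sox3 list. With only the Sox3 lists of WT embryos counted, no peak was found in 35.1% of kept regions, against 48.0% of all regions.

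The classes were then compared by the 8 lists that had not been used to form them, starting with p63 at 36 hpf, the next stage. The 36 hpf lists held 16993 and 9538 peaks. For both of these libraries the study reported fewer uniquely mapped reads than for any library that defines the classes. A region without a 36 hpf peak is therefore not shown to be free of p63 at that stage. Of gained regions 57.5% (95% interval 55.6 to 59.4) had a peak in replicate 1 of 36 hpf and 43.9% (41.9 to 45.8) in replicate 2. Of lost regions 6.96% (6.51 to 7.43) and 3.37% (3.06 to 3.71) did. For kept regions the shares were 61.0% (59.8 to 62.2) and 50.5% (49.2 to 51.7). Over all 65824 regions they were 16.1% and 11.1%. Gained regions thus had a 36 hpf peak nearly as often as kept regions did, and lost regions less often than the average region, in both libraries. These and the later shares count any overlap of 1 bp with a merged region, and merged regions differed in width. The median was 246 bp for gained, 236 bp for lost, 382 bp for kept and 146 bp for regions in none of the classes. The part of width in the shares was not tested. Both 36 hpf lists had a peak in 1079 gained regions (41.8%), 295 lost regions (2.42%) and 3187 kept regions (48.9%), against 10.2% of all regions. Since regions are not replicates and n = 2 libraries, no test was made of these differences.

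The difference between gained and lost regions at 36 hpf kept its direction in the full lists and in lists of 14707 and 5000 peaks, and at equal depth. At equal length the shares with a 36 hpf peak were 62.8% and 49.1% for gained regions, against 12.9% and 7.17% for lost regions. With 5000 peaks per list they were 85.4% and 75.0% for gained regions, against 30.5% and 21.8% for lost regions. Scaling to equal depth gave 57.4% and 43.5% for gained regions, against 7.96% and 4.04% for lost regions. It was smallest without replicate 1 of 24 hpf, when the shares were 27.8% and 19.2% for gained regions, against 7.47% and 3.63% for lost regions.

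Gained and lost regions are ranked in different lists, so that each was set beside kept regions in the same 25% of rank. In the top 25% of the mean percentile in the 24 hpf lists, 83.1% (79.9 to 86.0) of gained regions and 87.6% (86.4 to 88.8) of kept regions had a peak in 36 hpf replicate 1, and 71.5% (67.7 to 75.0) and 78.5% (77.0 to 80.0) had one in replicate 2. In the next 25% the shares were 60.7% (57.5 to 63.8) of gained and 48.9% (46.7 to 51.2) of kept regions in replicate 1, and 44.8% (41.6 to 48.0) and 36.8% (34.6 to 39.0) in replicate 2. In the 25% after that they were 41.5% (38.0 to 45.1) of gained and 28.2% (25.8 to 30.8) of kept regions in replicate 1, and 28.8% (25.6 to 32.1) and 16.1% (14.1 to 18.2) in replicate 2. In the lowest 25% they were 30.0% (24.1 to 36.4) of 227 gained and 18.8% (14.8 to 23.4) of 335 kept regions in replicate 1, and 17.2% (12.5 to 22.7) and 10.7% (7.64 to 14.6) in replicate 2. Gained regions thus had a 36 hpf peak less often than kept regions in the top 25% and more often in the 3 lower ranges. Rank was not matched within a range. In 24 hpf replicate 1 the highest 10% of the list held 3.89% of the peaks of gained and 19.2% of those of kept regions. In 80% epiboly replicate 1 it held 4.36% of the peaks of lost and 38.7% of those of kept regions. The part of rank in the differences between classes was not tested. The intervals cover counting error over regions, which are not replicates, and no test was made of these differences. Ranked in the lists of 80% epiboly, 11.3% of 2139 lost regions and 69.6% (68.2 to 70.9) of kept regions in the top 25% had a peak in 36 hpf replicate 1. In the lowest 25% it was 3.86% (2.96 to 4.94) of lost regions and 40.3% (32.4 to 48.5) of kept regions. The strongest lost regions as a group thus had a 36 hpf peak less often than the weakest kept regions.

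**Figure D4:**
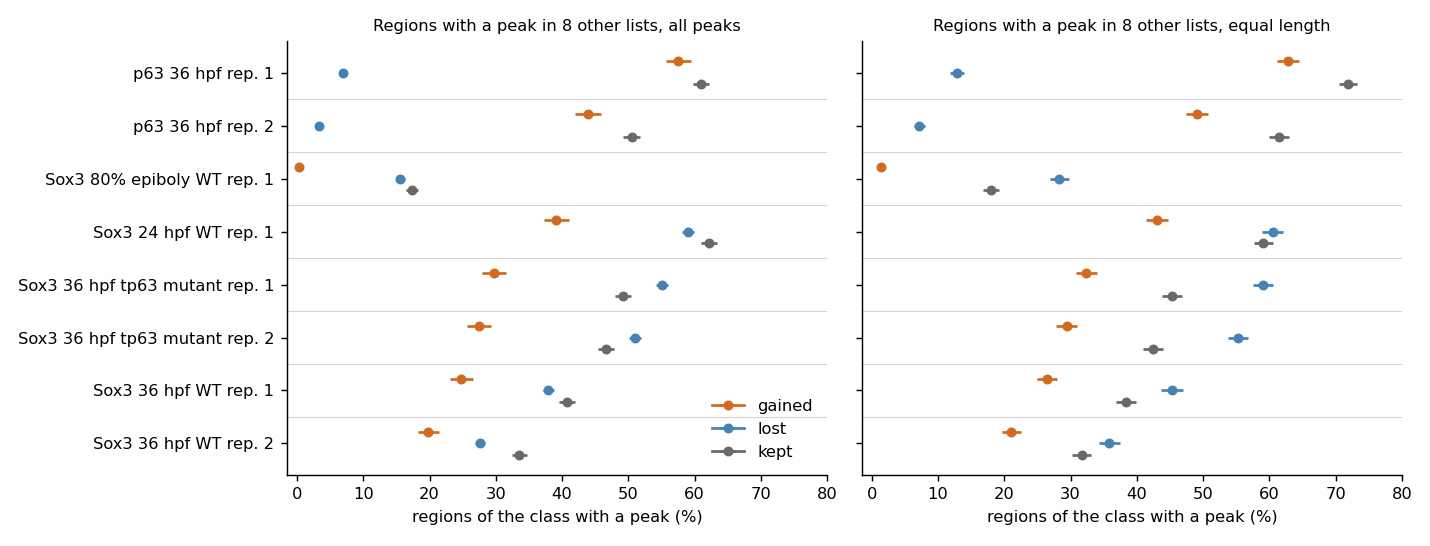
Percentage of gained (orange), lost (blue) and kept (grey) regions that shared at least 1 bp with a peak of each of the 8 lists not used to define them, with 95% Clopper-Pearson intervals, for all peaks (left) and for lists of equal length (right). Gained regions lie near kept regions in both p63 lists at 36 hpf, at 57.5% and 43.9% with all peaks, and below lost regions in every Sox3 list.

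Sox3 occupancy separated gained from lost regions in the opposite way. In the Sox3 list of 80% epiboly, the shortest of the 8 with 6045 peaks, a peak was found in 8 of 2579 gained regions (0.310%, 0.134 to 0.610), against 15.6% (15.0 to 16.3) of lost and 17.4% (16.5 to 18.3) of kept regions, and in 8.09% of all regions. Without replicate 1 or replicate 2 of 80% epiboly, the share of lost regions was 8.97% or 9.71%, and that of gained regions 0.592% or 0.823%. In the Sox3 list of 24 hpf it was found in 39.1% (37.2 to 41.0) of gained, 59.0% (58.1 to 59.9) of lost and 62.1% (60.9 to 63.3) of kept regions, and in 48.2% of all regions. The difference of gained minus lost regions in this list was −19.9 percentage points, and −6.29 or −6.93 without replicate 1 or replicate 2 of 80% epiboly. Lost regions therefore had a Sox3 peak at 24 hpf more often than gained regions, at the stage at which they had no p63 peak. At 36 hpf the shares in *tp63* mutants were 29.7% and 27.4% for gained regions, against 55.0% and 51.0% for lost regions and 42.0% and 38.8% for all regions. In WT embryos at 36 hpf they were 24.7% and 19.8% for gained regions, against 37.9% and 27.6% for lost regions and 29.0% and 21.6% for all regions. The 2 Sox3 lists of earlier stages are single libraries, as the study left out their second replicates for low quality. For the Sox3 library of 80% epiboly it reported fewer uniquely mapped reads than for any other Sox3 library. Gained regions by definition lack a p63 peak in the lists of that stage, and the part of this rule in their low share was not tested. Sox3 lists of more peaks gave higher shares in every class at 24 and 36 hpf in these data, except that the longest list, of mutant replicate 1, gave lower shares than the 24 hpf list.

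The order of gained and lost regions in the Sox3 lists was the same at equal length. The shares at 24 hpf were then 43.0% for gained regions and 60.5% for lost regions, and at 80% epiboly they were 1.46% and 28.3%. The order of lost and kept regions was not the same. In each of the 4 Sox3 lists of WT embryos, lost regions stood below kept regions with all peaks and above them at equal length. The difference at equal length was small at 24 hpf, where kept regions had 59.1%. In WT replicate 1 of 36 hpf it was larger, with 45.3% of lost and 38.4% of kept regions. In both mutant lists lost regions stood above kept regions either way. By rank, strong regions had a Sox3 peak at 24 hpf less often than weak ones at the later stage. In the top 25% of the 24 hpf lists it was found in 31.6% (28.0 to 35.5) of gained and 53.4% (51.6 to 55.2) of kept regions. In the lowest 25% it was found in 47.6% (40.9 to 54.3) of gained and 80.6% (75.9 to 84.7) of kept regions. None of the 4 Sox3 lists of WT embryos had a peak in 58.3% (56.3 to 60.2) of gained regions, against 35.3% (34.5 to 36.2) of lost, 35.1% (33.9 to 36.3) of kept and 48.0% of all regions. No peak in any of the 8 other lists was found for 14.3% of gained, 27.4% of lost and 6.15% of kept regions, all below the 34.1% of all regions.

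The classes were spread over all 25 chromosomes. Density was calculated over 1340 Mb, the summed position of the last peak of any list on each chromosome, and was 1.89 gained, 8.94 lost and 4.74 kept regions per Mb. Gained regions ranged from 1.27 to 2.55 per Mb between chromosomes, with the highest densities on chromosomes 18 (2.55), 23 (2.40) and 13 (2.36) and the lowest on chromosomes 4 (1.27), 14 (1.42) and 2 (1.43). Lost regions ranged from 5.17 to 11.9 per Mb, with the highest densities on chromosomes 23 (11.9), 19 (10.5) and 11 (9.98) and the lowest on chromosomes 4 (5.17), 12 (7.84) and 24 (7.88). Kept regions ranged from 2.39 to 6.46 per Mb, with the highest densities on chromosomes 23 (6.46), 11 (5.50) and 13 (5.37) and the lowest on chromosomes 4 (2.39), 14 (4.06) and 12 (4.16). Chromosome 4, whose long arm is rich in repeats in zebrafish, was thus the sparsest for all 3 classes, and chromosome 23 was among the densest for all 3. This was not particular to the classes. Over all merged regions chromosome 4 was also the sparsest, with 2035 regions on 76.6 Mb, and chromosome 23 the densest, with 2771 on 46.3 Mb.

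**Figure D5:**
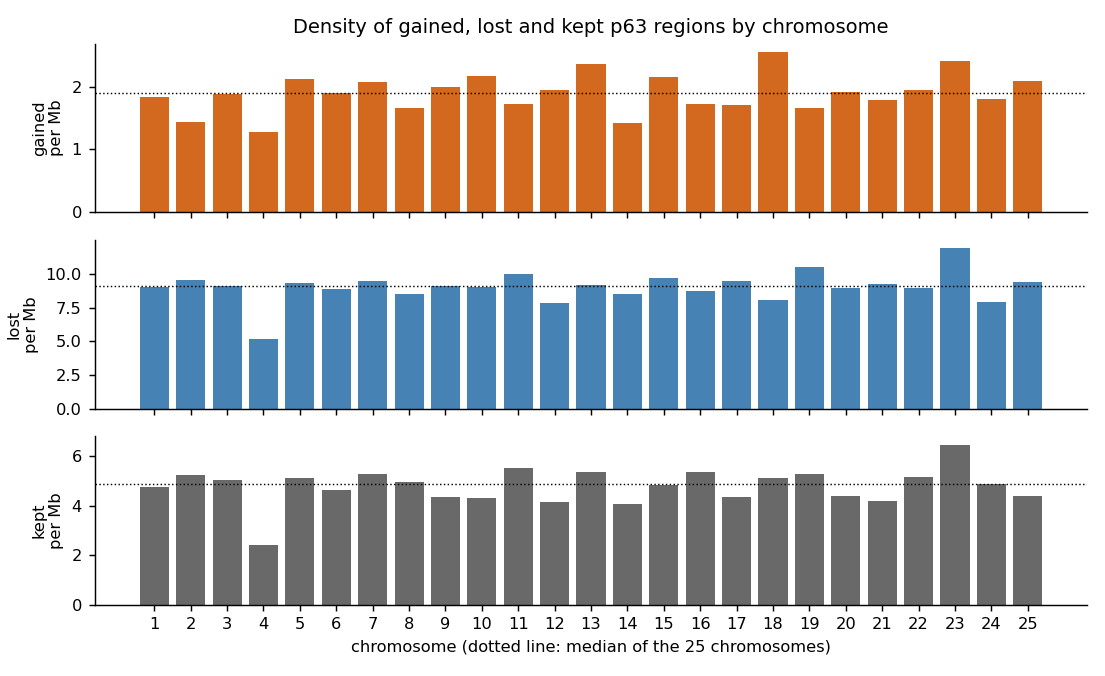
Gained (top), lost (middle) and kept (bottom) p63 regions per Mb on each of the 25 zebrafish chromosomes, with the median over chromosomes as a dotted line (1.89, 9.11 and 4.88 per Mb). Chromosome 4 is lowest in each panel, at 1.27, 5.17 and 2.39 per Mb, and is also the sparsest for all merged regions. Chromosome 18 stands highest for gained regions at 2.55 per Mb.

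On chromosome 4, 10 of 97 gained, 55 of 396 lost and 20 of 183 kept regions lay beyond its midpoint. Among its regions in none of the classes, 189 of 1359 did. Of gained and lost regions together, 17.5% (16.9 to 18.1) were gained. This share was highest on chromosome 18, with 130 gained and 411 lost regions (24.0%, 20.5 to 27.9), and lowest on chromosome 2, with 85 gained and 566 lost regions (13.1%, 10.6 to 15.9). These intervals are not adjusted for the choice of the extremes among 25 chromosomes. Along the chromosomes, 22.4% of gained, 19.8% of lost and 20.4% of kept regions lay in the outer 10% at either end. Outside chromosomes 1 to 25 lay 1.98% of gained, 1.64% of lost and 2.53% of kept regions. For regions in none of the classes these 2 shares were 21.6% and 2.01%, near those of the classes.

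Spacing followed the number of peaks. The median distance of a summit to its nearest neighbour was 20048 and 11552 bp at 24 hpf, against 8304.5 and 6923 bp at 80% epiboly, a difference of 8190 bp in the means (exact permutation test, smallest attainable p of 0.333). At equal length it was 20048 and 18360 bp at 24 hpf, against 17301 and 17296 bp at 80% epiboly, a difference of 1910 bp with the same p. Within a list of equal length, 32.0% and 33.4% of summits had a neighbour within 10 kb at 24 hpf, against 36.2% and 35.6% at 80% epiboly. The difference in spacing was thus reduced at equal length but kept its direction, with groups that did not overlap.

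Regions of a class lay closer to their own class than to the other changing class at equal length. A gained region had its nearest gained region at a median of 91.3 kb, its nearest lost region at 124 kb and its nearest kept region at 81.2 kb, nearer than its own class. A lost region had its nearest lost region at 64.0 kb, its nearest gained region at 123 kb and its nearest kept region at 75.1 kb. For kept regions the nearest kept region lay at 53.5 kb, the nearest gained region at 95.6 kb and the nearest lost region at 86.4 kb. With all peaks, when lost regions were far more numerous, the nearest lost region of a gained region lay at 42.1 kb and its nearest gained region at 121 kb. At equal length lost and kept regions were thus more closely spaced among themselves than gained regions were, although there were 3821 lost and 4237 kept regions against 3353 gained regions, and closer spacing goes with higher number. In windows of 100 kb, all peaks used, the most gained regions in a window was 4, against 10 for lost and 11 for kept regions. At least 3 regions of the class were found in 56 windows for gained, 1359 for lost and 468 for kept regions. Of 13414 windows, 2131 held a gained region, 6569 a lost region and 1204 both.

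The windows with the most regions of each class are named here. The window of most lost regions was chr14:32300001-32400000, with 10 lost, 1 kept and 0 gained of 25 merged regions. The window of most kept regions was chr10:16800001-16900000, with 11 kept, 4 lost and 0 gained of 24 merged regions. Of the 3 windows with 4 gained regions, chr7:22600001-22700000 also held 1 lost and 1 kept region, and chr11:21800001-21900000 also held 4 lost regions and no kept region. The third, chr15:8900001-9000000, also held 1 lost and 2 kept regions. None of the 3 densest windows of lost or of kept regions held a gained region. As 2131 of all 13414 windows held one, these few windows cannot show a difference between the classes.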

How the data were processed

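ChIPmentation of p63 in whole WT zebrafish embryos gave 1 deposited peak list per library, with 2 libraries each at 24 hpf and 80% epiboly. Per the study's methods and the submitters' processing notes, the authors aligned reads to GRCz10 (danRer10) with Bowtie and called narrow peaks in each library with MACS2, with a genome size of 1.5 Gb (tool versions are not given in the sources used here). The deposited values of each peak are the fold enrichment (a ratio of the summit pileup to the local background), −log10 of the p-value and of the q-value, a whole-number score derived from the q-value and the offset of the summit. These per-library values were used to rank and filter peaks within a list, and the score was not used. Replicates were not pooled, and a peak below the caller's limit is not in a list.

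Lists were merged at an overlap of 1 bp with Python 3.11.15, numpy 2.4.6, pandas 2.3.3 and scipy 1.17.1, and figures were drawn with matplotlib 3.10.9. Pileup and background of each peak were recovered from fold enrichment and −log10 p. The fragment length was the whole number that made the background over 10 kb whole (within 0.05) for the most peaks, and the lowest background then gave the tags. Classes, distances and shares are counts over regions with 95% Clopper-Pearson intervals for counting error, and library values were compared by the exact two-sided permutation test over the 6 ways to choose 2 of 4 libraries. Named regions are the 5 of each class on chromosomes 1 to 25 of highest mean percentile of −log10 q in the lists that define it, and named chromosomes are the 3 densest and the 3 sparsest for each class. Equal length, equal depth, other thresholds and overlaps, chromosomes 1 to 25 alone, a replicate block and leaving out each library were tried as alternatives. The functions were tested on simulated data. The comparison, classes and settings were chosen with earlier results of these data known. Sequence, motifs and nearby genes were not analysed here.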

Additional observations from a re-analysis of the deposited data

How the results depend on the processing

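The differences between stages in log2 peak number, width and spacing kept their direction under every alternative run on them. So did the log2 ratio of lost to gained regions, while the number of regions in each class changed. Other orders reversed at equal length. One was whether a gained region lay nearer to a lost or to another gained region. Another was the order of lost and kept regions in the Sox3 lists of WT embryos. A −log10 q of at least 10 left 1271 gained, 6206 lost and 2771 kept regions. Counting a peak in either replicate gave 12172 gained, 36425 lost and 17227 kept regions, with a log2 ratio of lost to gained of 1.58. Lists of equal length gave 3821 lost and 4237 kept regions and a ratio of 0.188, and lists of 5000 peaks gave 1442, 1527 and 1733 gained, lost and kept regions and a ratio of 0.0826. The ratio was 1.61 with a fold enrichment of at least 5, 1.62 at equal depth (a limit of 5.48 on −log10 p at 12.1 M tags) and 2.17 with an overlap of 50% of both peaks. Leaving out each library gave 3039 to 9845 gained, 13235 to 26936 lost and 6955 to 11586 kept regions and ratios of 0.427 to 3.15, since a stage with 1 library asks for 1 peak only. It gave differences of −1.43 to −0.624 in log2 peak number, −15.5 to −2.5 bp in width and 3940 to 12400 bp in spacing. No test of 2 against 2 libraries can pass 0.05, so unchanged calls say nothing of stability.

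The replicate numbers of the labels were tried as a replicate block. Differences were −1.03, −9.0 bp and 8190 bp as before, each with an exact sign-flip p of 0.5, the smallest 2 pairs allow. The labels name no shared batch, and replicate 1 lay below its stage mean in log2 peak number at both stages (−0.40 at 24 hpf and −0.11 at 80% epiboly).

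Among shares compared after the data were seen, the difference between gained and lost regions in a 36 hpf p63 peak ranged from 15.6 to 63.2 percentage points over 2 lists and 10 alternatives, and that in a Sox3 peak at 24 hpf from −29.8 to −6.29. A lost region can be a region bound below the threshold of the 24 hpf lists, which came from fewer tags. The part of depth in the lists was not tested, as the equal-depth values only rescale peaks already called.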
